A study of Homo sapiens with 19 samples.

Results

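Among the cell surface receptors of the macrophage, the leukocyte immunoglobulin-like receptors (LILR), the sialic acid-binding immunoglobulin-type lectins (SIGLEC) and the C-type lectin domain genes (CLEC) were examined for their response to vitamin C (vit C). All genes were taken whose name in the array's design starts with LILRA, LILRB, SIGLEC or CLEC followed by a digit, control spots excluded. This gave 49 genes of 31033 gene names: 6 LILRA, 5 LILRB, 12 SIGLEC and 26 CLEC genes, measured by 82 probes. All 49 names match a current RefSeq symbol, and 26 of the genes lie on chromosome 19 and 14 on chromosome 12. The cells were THP-1, a human acute monocytic leukaemia line, and all groups first received 30 nM PMA, a phorbol ester that turns these cells into adherent macrophage-like cells, and were then rested. Cultures were afterwards left untreated (UT) or given 0.1 mM vit C, and both were harvested 8, 24, 48 and 96 h after the time of vit C addition. One-colour Agilent arrays were hybridized with RNA of UT cells (2 arrays at 8 h, 3 at 24 h, 2 at 48 h, 3 at 96 h) and of vit C-treated cells (3, 2, 2 and 2 arrays), 19 in all. The cells are 1 tumour line driven by PMA and not blood monocytes, so the values describe this model only.

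As background, the receptors of these families sense self and microbial structures at the surface of myeloid cells and pass on activating or inhibitory signals. LILRB proteins and most SIGLEC proteins carry inhibitory ITIM motifs in their tails and recruit the phosphatases PTPN6 and PTPN11, while most LILRA proteins, SIGLEC14, SIGLEC15, SIGLEC16, CLEC5A and CLEC4E signal through the ITAM adaptors FCER1G or TYROBP and the kinase SYK. LILR receptors bind MHC class I and related ligands, SIGLEC receptors bind sialic acid on glycans, and CLEC receptors bind sugars or lipids of fungi and mycobacteria as well as ligands on other cells.

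A level is given below as the normalized log2 signal, that is log2 of the scanner's processed signal minus the 75th percentile of the array, so that a level of 0 is that percentile of the array. Levels of different probes are not set against each other, because probes differ in brightness. A gene is described by its probe with the highest mean signal unless another is named. By this probe, 16 of the 49 genes were marked well above background on all 19 arrays by the scanner software: LILRA1, LILRA2, LILRA4, LILRB3, LILRB4, SIGLEC5, SIGLEC9, SIGLEC11, SIGLEC15, SIGLEC16, CLEC2D, CLEC3B, CLEC4A, CLEC4G, CLEC4M and CLEC11A. A further 16 were so marked throughout at least 1 of the 8 groups (LILRA3, LILRA6, LILRB1, LILRB2, LILRB5, SIGLEC1, SIGLEC6, SIGLEC7, SIGLEC10, SIGLEC14, CLEC2B, CLEC4D, CLEC4E, CLEC5A, CLEC7A and CLEC10A), 6 on some arrays only (LILRA5, CLEC2A, CLEC2L, CLEC4GP1, CLEC12A and CLEC14A), and 11 on no array. The 11 were SIGLEC8, SIGLEC12 and 9 CLEC genes, among them CLEC9A and CLEC4C, known from dendritic cells, and CLEC1B, known from platelets. All 5 LILRB genes and 10 of the 12 SIGLEC genes were well above background throughout a group, against 12 of the 26 CLEC genes.

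**Figure D1:**
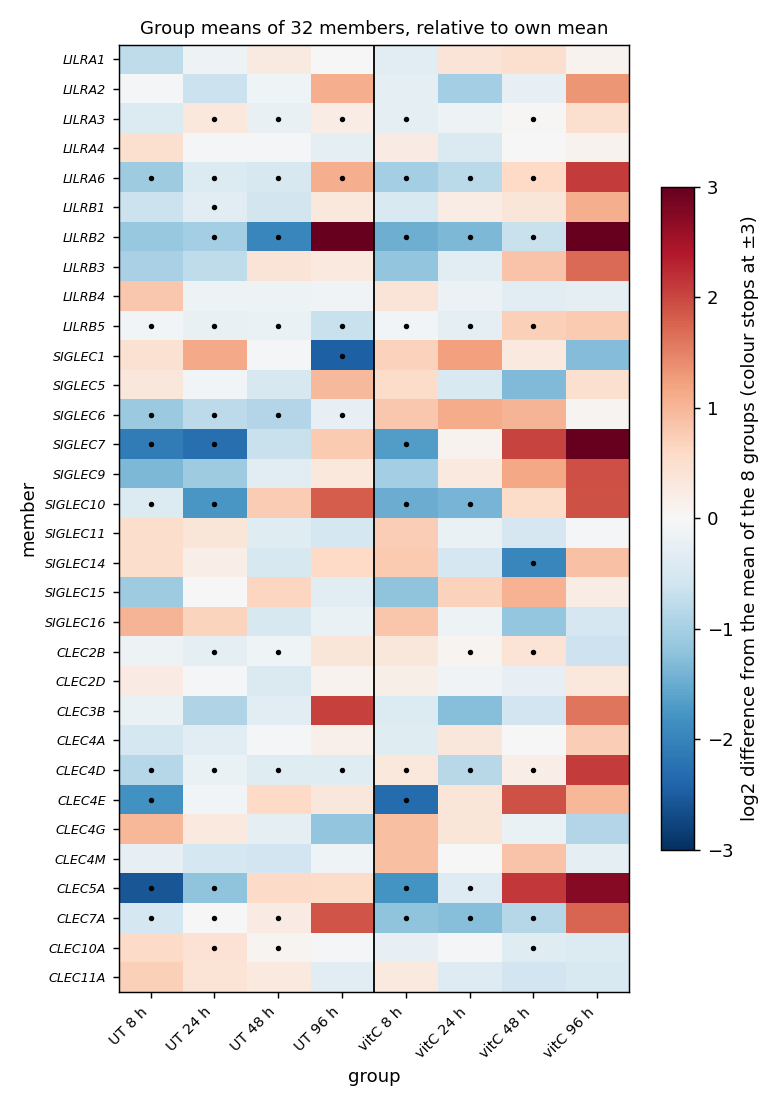
Group means of the 32 genes that were well above background throughout at least 1 group. Rows are genes, columns the 8 groups, and colour is the log2 difference of the group mean from the gene's own mean over the groups; a black dot marks a group in which at least 1 array was not well above background. The deepest red cells are SIGLEC7 and LILRB2 in vit C-treated cells at 96 h, and CLEC5A goes from blue at 8 h to red in the same arm.

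Between 57.5% and 72.8% of probes per array were well above background, with the highest shares on the vit C-treated arrays of 96 h. The 75th percentile of the signal was 788 and 904 on these arrays, against 290 to 626 on the others. Its part in which dim probes were well above background or called at 96 h was not tested. The arrays lay on 4 slides, and 8 of the 10 UT arrays shared a slide, while the UT arrays of 96 h numbered 2 and 3 shared another with the vit C-treated arrays of 8 and 24 h and 1 of 48 h. No slide held both arms of the same time, so every comparison between the arms is also one between slides. At 8, 24 and 48 h the UT arrays of 96 h are the link that lets a slide term be fitted, and at 96 h treatment, slide and scan day cannot be told apart. UT 96 h replicate 3 stood apart, with a Pearson r across probes of 0.944 against UT 96 h replicate 1 and 0.930 against replicate 2, and was nearest to a vit C-treated array, vitC 96 h replicate 2, with 0.962. Where leaving it out changed a call, this is given beside the result. The vitC 24 h replicate 1 array had 0.983 with UT 24 h replicate 3 and 0.977 with the other vit C-treated array of 24 h. Of the 10 macrophage markers, 9 were well above background on all arrays and LYZ on 18. Some markers of other cell types were also well above background on all arrays, namely all 5 of dendritic cells, 3 of 5 of B cells, 2 of 5 of fibroblasts, 1 of 5 of T cells, 1 of 5 of platelets and 0 of 5 of NK cells. KLRD1 of NK cells, CD3D of T cells and COL1A2 of fibroblasts were well above background on no array.

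The main question was which of these receptors differ between vit C-treated and UT cells at the same time. A call needs a probe that changed by 1 or more on the log2 scale in either direction, with q, the p of a limma fit over all probes after Benjamini-Hochberg adjustment, no higher than 0.05. At 8 h, 0 of 38 genes tested were called by limma, against 0.549% of all genes tested, and 0 at an unadjusted p of 0.05 with the same fold change, against 7.04% of all genes. Without UT 8 h replicate 1, CLEC14A was called at 8 h, but of its 19 arrays only the remaining UT array of 8 h was well above background, so no fold is given. At 24 h, 2 of 43 were called (SIGLEC7 higher, SIGLEC5 lower), against 1.65% of all genes. At 48 h, 5 of 42 were called, with SIGLEC7, SIGLEC9 and CLEC4E higher and SIGLEC5 and SIGLEC14 lower, against 3.64% of all genes. At 96 h, 10 of 40 were called, against 12.8% of all genes. SIGLEC7, SIGLEC9, CLEC5A, CLEC4D, LILRB2 and LILRB3 were higher, where 2.72% of all genes were called higher. The other 4, CLEC3A, CLEC4C, CLEC9A and CLEC17A, were lower by probes that were well above background on no array of the 2 groups, so no fold is given for them; 10.1% of all genes were called lower. Over all 49 receptors, dim ones included, the median log2 fold change was 0.03, -0.38, 0.05 and 0.10 at 8, 24, 48 and 96 h, and over all genes -0.05, -0.13, -0.02 and -0.15. The count at 96 h was 3 without either vit C-treated array of 96 h, 5 without UT 96 h replicate 1 and 13 without UT 96 h replicate 3, which added SIGLEC12, CLEC2A and CLEC4GP1 as lower, none by a probe well above background throughout a group. At 48 h it fell from 5 to 2 whichever of the 4 arrays of that time was left out. Without UT 24 h replicate 3 or vitC 24 h replicate 2 the count at 24 h was 1. With normexp background correction, which also adds an offset of 50 to every signal, the counts were 0, 1 and 4 at 24, 48 and 96 h, and after quantile normalization 5 at 96 h. The methods' t-test called 0 at any time after Benjamini-Hochberg adjustment, and 0, 3, 6 and 10 at the unadjusted threshold. The summed linear level of the 5 dendritic cell markers ran from 1.69 to 1.75 in UT and from 2.39 to 2.41 in vit C-treated cells at 24 h, from 3.08 to 3.24 and 5.87 to 5.92 at 48 h, and from 1.35 to 2.12 and 2.57 to 2.84 at 96 h. For the 5 fibroblast markers it ran from 3.56 to 4.16 and 4.98 to 7.67 at 24 h, from 6.29 to 6.83 and 9.25 to 11.9 at 48 h, and from 3.69 to 5.79 and 6.72 to 7.37 at 96 h. For the 5 platelet markers it ran from 4.25 to 5.28 and 5.92 to 7.15, from 2.34 to 2.50 and 3.64 to 5.46, and from 2.14 to 4.25 and 5.74 to 5.86 at these times. At 8 h, where 0 receptors were called by limma, it ran from 1.44 to 1.48 and 1.50 to 1.66 for the dendritic cell, from 1.81 to 2.86 and 5.28 to 6.25 for the fibroblast, and from 5.13 to 5.27 and 8.22 to 10.8 for the platelet markers. The sum of each of these 3 lists was thus higher on every vit C-treated array than on every UT array of the same time at all 4 times. For the 5 B cell markers it ran from 1.46 to 2.16 in UT and 3.54 to 3.98 in vit C-treated cells at 8 h and from 1.87 to 2.57 and 3.70 to 5.02 at 48 h, while the arms overlapped at 24 and 96 h, and for the 5 T cell markers they overlapped at all 4 times. The part of these cell types in the counts was not tested.

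SIGLEC7, an inhibitory receptor known mainly from NK cells and monocytes, had the largest difference among the receptors called at 24, 48 and 96 h. RNA was taken from whole cultures, so more cells of a type and more RNA per cell cannot be told apart here or below. Its normalized log2 signal in UT cells was -4.95 and -5.03 at 8 h, -5.27, -4.85 and -5.37 at 24 h, -3.45 and -3.67 at 48 h, and -2.11, -1.87 and -2.31 at 96 h. With vit C it was -4.68, -4.67 and -4.33 at 8 h, -2.60 and -2.97 at 24 h, -0.96 and -0.77 at 48 h, and 0.97 and 0.85 at 96 h. It was higher at 96 h than at 8 h in both arms, and from 24 h on every vit C-treated array lay above every UT array of the same time. The log2 fold change was 0.43 at 8 h, where its 2 probes went in opposite directions and no q was computed. It was 2.38 at 24 h (SE 0.21, limma q = 0.000114), with 1 of the 3 UT arrays well above background. At 48 h it was 2.70 (SE 0.24, limma q = 6.79e-05) and at 96 h 3.01 (SE 0.21, limma q = 4.3e-06). The other SIGLEC7 probe gave 1.56, 2.12 and 2.73 at these times and was called at 48 and 96 h. No array left out in turn removed the calls of SIGLEC7 at 24, 48 or 96 h, and with UT 96 h arrays of either slide alone the difference at 96 h was 3.03 and 3.00. With slide as a term the difference was 2.35 at 24 h (limma q = 0.0585) and 2.58 at 48 h (limma q = 0.022). With normexp it was 0.45 at 24 h (limma q = 0.289), where the call was lost, and 1.34 at 48 h, still called. NCR1, an NK cell receptor, was also called higher at 48 h (log2 fold change 2.13) and at 96 h (1.47). At 96 h, 1 of 3 UT arrays was well above background for NCR1. It was the only called gene among the 5 NK cell markers at either time. KLRF1, the other marker well above background throughout a compared group, had a lower mean with vit C both times. The median difference of this pair was 0.78 and 0.46. KLRD1 was well above background on no array. The summed linear level of the 5 NK cell markers ran from 0.143 to 0.252 in UT and from 0.406 to 0.471 in vit C-treated cells at 24 h, from 0.211 to 0.213 and 0.446 to 0.516 at 48 h, and from 0.229 to 0.417 and 0.254 to 0.503 at 96 h. Their part in the result was not tested.

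SIGLEC9, the inhibitory receptor encoded next to SIGLEC7, was also higher, with smaller differences. Its level in UT cells was -3.70 and -3.90 at 8 h, -3.56, -3.45 and -3.55 at 24 h, -2.68 and -2.85 at 48 h, and -1.66, -1.70 and -3.07 at 96 h. The vit C-treated arrays read -3.35, -3.57 and -3.51 at 8 h, -1.92 and -2.40 at 24 h, -1.27 and -1.34 at 48 h, and -0.54 and -0.49 at 96 h. Vit C-treated arrays were all above UT arrays of the same time, and UT 96 h replicate 3 was more than a log2 unit below the other UT arrays of 96 h. The log2 fold change was 0.32 at 8 h (limma q = 0.736) and 1.36 at 24 h (SE 0.33, limma q = 0.0531, not called). It was 1.46 at 48 h (limma q = 0.0376) and 1.62 at 96 h (limma q = 0.0106). The call at 48 h was lost without any 1 of its 4 arrays (1.37 to 1.55), and that at 96 h without vitC 96 h replicate 1 (1.65) or 2 (1.60). Without UT 96 h replicate 3 the difference at 96 h was 1.16 and still called. With slide as a term the difference at 48 h was 2.21 (limma q = 0.181) and with normexp 0.71 (limma q = 0.207), while at 96 h it was 1.04 with normexp and still called.

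**Figure D2:**
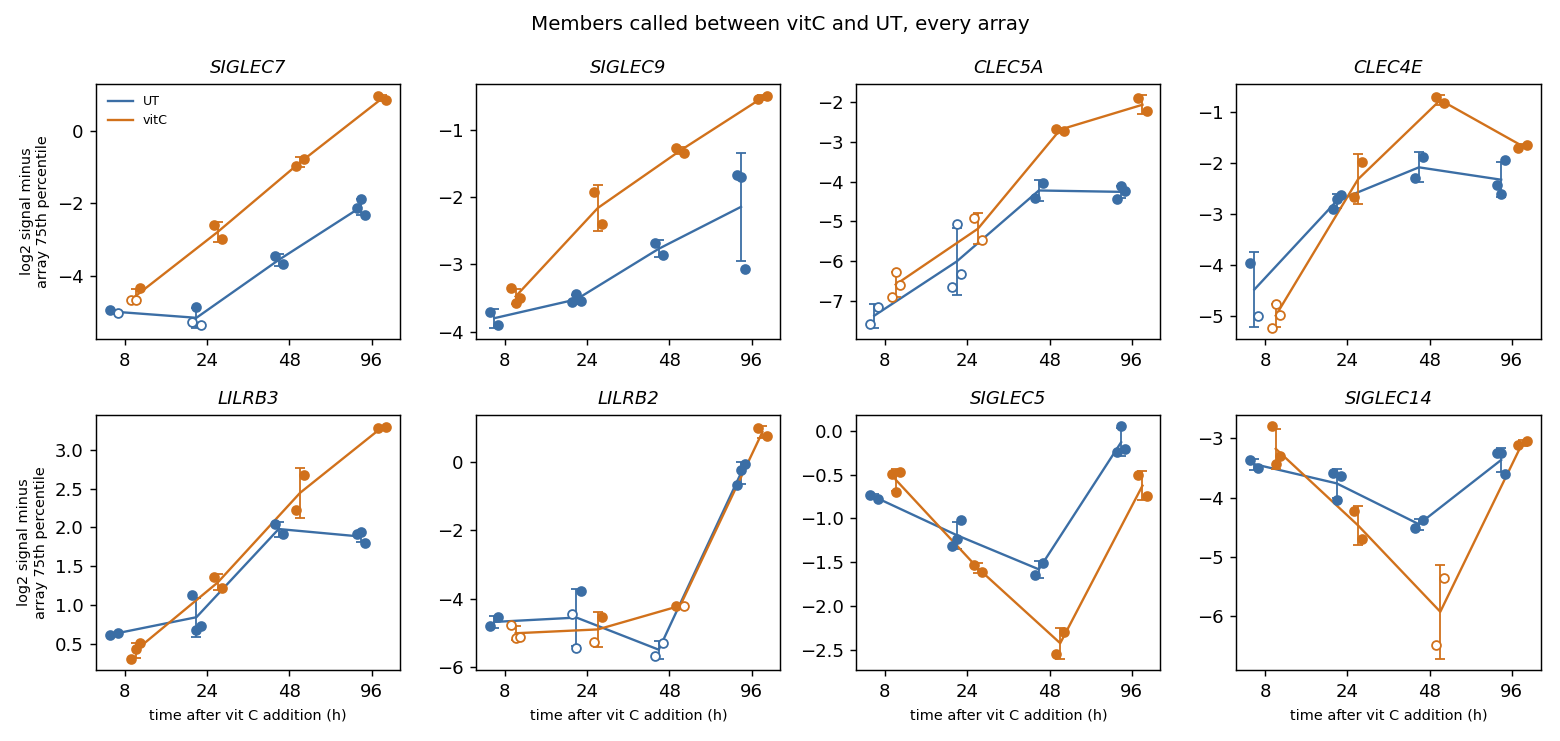
Normalized log2 signal (log2 signal minus the array's 75th percentile) by time for 8 genes called between vit C-treated (orange) and UT cells (blue). Each point is 1 array, open where it was not well above background, lines join group means and bars are SDs; the brightest probe is drawn. SIGLEC7, SIGLEC9, CLEC5A and LILRB3 separate upwards with time, SIGLEC5 and SIGLEC14 dip furthest in vit C-treated cells at 48 h, and LILRB2 rises in both arms at 96 h.

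SIGLEC5 and SIGLEC14 went the other way. The pair is known to share an almost identical ligand-binding end, with an inhibitory tail in SIGLEC5 and an activating partner in SIGLEC14, so a probe may bind RNA of either gene, which was not tested. The brightest SIGLEC5 probe had a level in UT cells of -0.73 and -0.77 at 8 h, -1.32, -1.24 and -1.02 at 24 h, -1.65 and -1.52 at 48 h, and -0.24, 0.05 and -0.20 at 96 h. After vit C the level was -0.50, -0.70 and -0.47 at 8 h, -1.53 and -1.61 at 24 h, -2.55 and -2.30 at 48 h, and -0.51 and -0.74 at 96 h. It was lowest at 48 h in both arms, and lower on the vit C-treated arrays of 48 h than on any other. Its log2 fold changes of -0.38 at 24 h, -0.84 at 48 h and -0.50 at 96 h stayed under the fold limit. The other SIGLEC5 probe carried the calls. It had -3.09, -3.04 and -2.83 in UT and -4.00 and -4.25 in vit C-treated cells at 24 h, which is a difference of -1.14 in log2 (SE 0.21, limma q = 0.015). At 48 h it had -3.25 and -3.52 in UT and -5.00 and -4.79 in vit C-treated cells, where it was not well above background, and was at least 2.35-fold lower (limma q = 0.0029). The call at 24 h was lost without UT 24 h replicate 3 (-1.06) or vitC 24 h replicate 2 (-1.01), and neither call was kept with slide as a term (-0.74 at 24 h and -1.23 at 48 h) or with normexp (-0.63 and -0.40).

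SIGLEC14 had a level in UT cells of -3.37 and -3.51 at 8 h, -3.59, -4.05 and -3.64 at 24 h, -4.51 and -4.38 at 48 h, and -3.25, -3.26 and -3.60 at 96 h. Under vit C it was -2.80, -3.44 and -3.30 at 8 h, -4.23 and -4.70 at 24 h, -6.48 and -5.36 at 48 h, and -3.11 and -3.04 at 96 h. Neither vit C-treated array of 48 h was well above background, while both UT arrays were, and the arms came back together at 96 h. SIGLEC14 was at least 1.13-fold lower at 48 h (limma q = 0.0239). This call was lost without any 1 of the 4 arrays, with log2 differences from -2.03 without vitC 48 h replicate 2 to -0.91 without vitC 48 h replicate 1, with slide as a term (limma q = 0.13) and with normexp (-0.29). The second SIGLEC14 probe changed by -0.17 and was not called.

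SIGLEC6, which is known from placenta and mast cells, was in no call but was well above background in 1 arm only up to 48 h, and is named here after its values were seen. Its brightest probe had -6.22 and -6.12 at 8 h, -4.98, -6.78 and -5.74 at 24 h, and -5.23 and -6.60 at 48 h in UT cells, with no array well above background. Vit C-treated cells had -4.32, -4.46 and -3.93, -3.55 and -4.32, and -4.47 and -3.60 at these times, with every array well above background. The arms did not overlap at these 3 times. At 96 h they overlapped, with 2 of the 3 UT arrays (replicates 2 and 3) and both vit C-treated arrays well above background. At 24 h SIGLEC6 was at least 1.84-fold higher with vit C (limma q = 0.171, not called). At 8 and 48 h it was left out of the test because its other probe, on no array well above background, went the other way; with such genes kept, the limma q was 0.257 and 0.24.

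The stretches before the transcription start were set side by side for this pair and for SIGLEC7 with SIGLEC9, because the members of each pair were called in the same direction between the arms at 48 h and lie near each other on chromosome 19. The sequences are from RefSeq on GRCh38.p14, 250 bases up to the start, written 5′ to 3′ on the gene's strand, and capitals mark GAGGAA or its reverse complement, the core that the myeloid factor PU.1 binds. In SIGLEC5 (minus strand, chr19:51630402-51630651) and SIGLEC14 (minus strand, chr19:51646826-51647075) 195 of 250 positions are identical without a gap, and the last 113 bases before the start are identical throughout. Neither window holds GAGGAA.
SIGLEC5: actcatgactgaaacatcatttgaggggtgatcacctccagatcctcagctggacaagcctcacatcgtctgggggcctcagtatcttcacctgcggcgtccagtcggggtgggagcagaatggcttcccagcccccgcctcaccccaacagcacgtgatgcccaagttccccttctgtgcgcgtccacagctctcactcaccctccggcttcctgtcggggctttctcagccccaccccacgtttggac
SIGLEC14: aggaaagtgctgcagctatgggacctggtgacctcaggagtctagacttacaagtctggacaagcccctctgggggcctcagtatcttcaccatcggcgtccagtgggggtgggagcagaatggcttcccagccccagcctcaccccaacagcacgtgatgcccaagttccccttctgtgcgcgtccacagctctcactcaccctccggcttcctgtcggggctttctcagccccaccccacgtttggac

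In SIGLEC9 (plus strand, chr19:51124630-51124879, the more upstream of 2 listed starts) the last 66 bases match the first 66 of the SIGLEC7 window (plus strand, chr19:51142209-51142274) at 55 positions, or 83.3%. Of SIGLEC7 only this stretch is shown, which holds no GAGGAA, although its window does further on.
SIGLEC9: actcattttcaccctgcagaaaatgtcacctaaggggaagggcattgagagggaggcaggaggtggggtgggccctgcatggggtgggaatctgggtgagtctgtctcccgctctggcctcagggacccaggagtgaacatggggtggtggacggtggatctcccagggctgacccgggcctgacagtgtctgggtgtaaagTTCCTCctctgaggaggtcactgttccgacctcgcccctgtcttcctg
SIGLEC7: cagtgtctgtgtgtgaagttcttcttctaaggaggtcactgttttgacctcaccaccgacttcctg

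CLEC5A, known as MDL-1, an activating receptor that pairs with TYROBP, was higher in vit C-treated cells at 96 h. Its level in UT cells was -7.59 and -7.16 at 8 h, -6.65, -5.06 and -6.33 at 24 h, -4.42 and -4.03 at 48 h, and -4.43, -4.11 and -4.24 at 96 h. With vit C it was -6.91, -6.28 and -6.59 at 8 h, -4.91 and -5.47 at 24 h, -2.66 and -2.72 at 48 h, and -1.89 and -2.23 at 96 h. No array of 8 or 24 h was well above background and all arrays of 48 and 96 h were, with the vit C-treated ones above the UT ones at both times. The log2 fold change was 1.53 at 48 h (SE 0.41, limma q = 0.0556, not called) and 2.19 at 96 h (SE 0.37, limma q = 0.00382). The other probe was called at 96 h as well, with a log2 fold change of 1.72. With UT arrays of either slide alone the difference at 96 h was 2.36 and 2.11. The call at 96 h was lost without vitC 96 h replicate 1 (2.03, limma q = 0.0622) and with normexp (0.82).

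CLEC4E, or Mincle, which binds the mycobacterial cord factor trehalose dimycolate, was called at 48 h only. It had a level of -3.96 and -5.01 at 8 h, -2.90, -2.70 and -2.63 at 24 h, -2.29 and -1.88 at 48 h, and -2.43, -2.61 and -1.94 at 96 h in UT cells. The vit C-treated arrays read -5.23, -4.76 and -4.98 at 8 h, -2.66 and -1.97 at 24 h, -0.70 and -0.83 at 48 h, and -1.70 and -1.64 at 96 h. At 48 h the vit C-treated arrays were above the UT arrays by a log2 fold change of 1.32 (SE 0.34, limma q = 0.0449), while the groups overlapped at 24 h. At 96 h the difference was 0.66 (limma q = 0.172). The call at 48 h was lost without any 1 of the 4 arrays (1.11 to 1.53) and under 8 of 12 alternatives of processing or test, among them slide as a term (1.23, limma q = 0.62) and normexp (0.89).

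CLEC4D, the partner of CLEC4E at the cell surface, was well above background on the vit C-treated arrays of 96 h and on no other. Its level was -6.50, -6.88 and -7.40 in UT cells at 96 h, with no array well above background, and -4.24 and -4.67 in vit C-treated cells, with both arrays well above it. It was at least 1.48-fold higher (limma q = 0.024), a call lost without UT 96 h replicate 2 (2.50), vitC 96 h replicate 1 (2.26) or vitC 96 h replicate 2 (2.68), as log2 differences. With normexp background correction the difference was -0.19. CLEC4A, CLEC7A, CLEC2B and CLEC2D, also on chromosome 12, were not called between the arms at any time. CLEC2D at every time and CLEC7A at 8 and 96 h were left out of the test, since their probes went in opposite directions.

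The window before the start of CLEC5A (minus strand, chr7:141946975-141947224) holds GAGGAA on either strand at 2 places, shown in capitals, and that of LILRB3 (minus strand, chr19:54223008-54223257) at 1.
CLEC5A: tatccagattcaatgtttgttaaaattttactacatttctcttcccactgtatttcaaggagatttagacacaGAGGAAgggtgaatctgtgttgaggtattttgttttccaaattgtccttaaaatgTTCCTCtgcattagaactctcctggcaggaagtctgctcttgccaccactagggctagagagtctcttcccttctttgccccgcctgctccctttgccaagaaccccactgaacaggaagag
LILRB3: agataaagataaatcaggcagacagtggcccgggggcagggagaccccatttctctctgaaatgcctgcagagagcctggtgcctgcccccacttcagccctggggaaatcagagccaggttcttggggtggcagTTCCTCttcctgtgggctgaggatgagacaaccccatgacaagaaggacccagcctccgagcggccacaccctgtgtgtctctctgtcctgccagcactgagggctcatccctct
Of the 9 receptors called between the arms by a probe well above background, 8 have an entry in the RefSeq promoter table, and 5 of these 8 windows hold GAGGAA or TTCCTC, against 16 of the 34 receptors with an entry and 23.6% of 35116 windows of the same length. The AP-1 motif TGANTCA, the target of the factors that phorbol esters activate, was searched on both strands and occurs in 0 of the 8 windows and in 6.6% of all windows. The CG dinucleotide occurs 1 to 11 times in the 8 windows, with a median of 11 over all windows and 3.5 over those 34 receptors. These are matches of letters, and no binding was measured.

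LILRB3, an inhibitory receptor of monocytes and granulocytes, was called at 96 h. Its level in UT cells was 0.62 and 0.64 at 8 h, 1.13, 0.68 and 0.73 at 24 h, 2.05 and 1.91 at 48 h, and 1.91, 1.94 and 1.80 at 96 h. After vit C the level was 0.31, 0.43 and 0.51 at 8 h, 1.37 and 1.22 at 24 h, 2.22 and 2.67 at 48 h, and 3.28 and 3.30 at 96 h. At 96 h both vit C-treated arrays lay above every other array, while the UT arrays of 48 and 96 h lay close together. The log2 fold change at 96 h was 1.41 (SE 0.19, limma q = 0.000692), and no array left out in turn removed this call. With UT arrays of either slide alone it was 1.38 and 1.42. At 48 h it was 0.47 (limma q = 0.279). The other LILRB3 probe had 0.49 at 96 h and was not called, and LILRB3 RNA is known to be very like LILRA6 RNA.

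LILRB2, an inhibitory receptor for HLA-G and other MHC class I molecules, had the largest change over time of the LILR genes. Its level in UT cells was -4.81 and -4.54 at 8 h, -4.45, -5.43 and -3.77 at 24 h, -5.67 and -5.30 at 48 h, and -0.68, -0.24 and -0.08 at 96 h. Under vit C it was -4.76, -5.14 and -5.11 at 8 h, -5.26 and -4.53 at 24 h, -4.21 and -4.20 at 48 h, and 0.98 and 0.74 at 96 h. At 96 h every array of either arm lay above every earlier array, and the vit C-treated arrays lay above the UT ones. The log2 fold change between the arms at 96 h was 1.19 (SE 0.38, limma q = 0.0481). The call was lost without UT 96 h replicate 1 (1.02) or 2 (1.24) and without vitC 96 h replicate 1 (1.08) or 2 (1.31), and it was kept without UT 96 h replicate 3. It was also lost under 8 of 10 alternatives of processing or test, with differences from 1.13 to 1.35 over the 10.

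**Figure D3:**
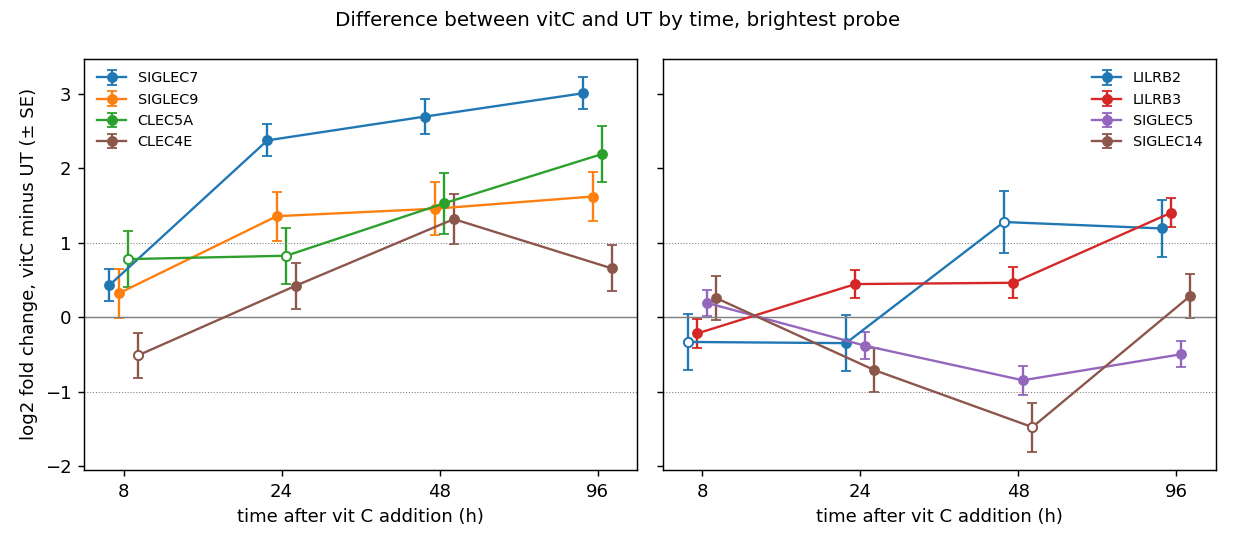
Difference between vit C-treated and UT cells by time as log2 fold change of the brightest probe, with bars for the SE of the limma fit and dotted lines at the fold limit of 1 in either direction. Open points mark a comparison in which a group had no array well above background, so that they are no fold. SIGLEC7 goes from 0.43 at 8 h to 3.01 at 96 h and LILRB3 from -0.21 to 1.41, while SIGLEC5 and SIGLEC14 are lowest at 48 h.

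Whether the effect of vit C changed with time was tested with a limma F test over the effects at the 4 times, which 3 of the 49 receptors passed (1.36% of all genes). These were SIGLEC7 (limma q = 0.00372), LILRB3 (limma q = 0.0392) and SIGLEC5 by its dimmer probe (limma q = 0.0491). The count was 5 without UT 96 h replicate 3, with SIGLEC9 (limma q = 0.0478) and the dim CLEC4C added, and 1 without any of UT 8 h replicate 2, UT 24 h replicate 3, UT 48 h replicate 1 or 2, UT 96 h replicate 2, vitC 8 h replicate 1 or 3, vitC 24 h replicate 2 and vitC 96 h replicate 1 or 2. The effects were then compared with that at 8 h, a contrast chosen after the data were seen. From 8 to 48 h the effect on SIGLEC7 grew by 2.27 on the log2 scale (limma q = 0.0132, lost without UT 8 h replicate 2), and from 8 to 96 h by 2.58 (limma q = 0.00112). For LILRB3 the effect grew by 1.62 from 8 to 96 h (limma q = 0.00979; 0.45 by its other probe, not called), a call lost without UT 8 h replicate 2 (1.61), UT 96 h replicate 3 (1.58) or vitC 96 h replicate 1 (1.63). For the dimmer SIGLEC5 probe it went down by a log2 difference of -1.67 from 8 to 48 h (limma q = 0.0448), which no fit with an array left out kept. With normexp the changes from 8 to 48 h were 1.16 for SIGLEC7 and -0.57 for SIGLEC5, neither of them called. In all, 2 of 37 receptors tested were called from 8 to 48 h and 3 of 38 from 8 to 96 h (the last CLEC9A, on no array well above background), where 0.233% and 1.99% of all genes were called. From 8 to 24 h, where each arm keeps to 1 slide, 0 of 40 were called by limma, against 0.0314% of all genes, and 9 passed at an unadjusted p of 0.05 with the same fold change, against 7.94% of all genes. The value of SIGLEC7 there was 1.95 (SE 0.30, limma q = 0.0555).

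Averaged over the 4 times, 3 of 41 receptors tested were called, all higher: SIGLEC7 (log2 fold change 2.13, limma q = 9.46e-08), SIGLEC9 (1.19, limma q = 0.000457) and CLEC5A (limma q = 0.000531). For CLEC5A no average fold is given, since no array of 8 or 24 h was well above background. Of all genes 3.46% were called. No array left out in turn removed any of these 3 calls, but with normexp the calls of CLEC5A and SIGLEC9 (0.58) were lost and that of SIGLEC7 was kept at 1.13. Without UT 48 h replicate 1 the count was 5. The receptors with the largest differences among those well above background throughout both groups were not called at the earlier times. At 8 h these were CLEC4M, or L-SIGN, with a log2 fold change of 1.16 (SE 0.39, probes in opposite directions) and CLEC10A, a galactose-binding lectin, with -0.82 (limma q = 0.372). CLEC4M had -2.25 and -1.65 in UT and -0.73, -0.96 and -0.68 in vit C-treated cells, and CLEC10A had -3.77 and -3.57 and -4.60, -4.54 and -4.33. At 24 h they were SIGLEC9, given above, and SIGLEC16, which was lower by a log2 difference of -0.82 (limma q = 0.0341), under the fold limit. At 48 h CLEC5A stood second to SIGLEC7 in this way, and at 96 h again.

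The course over time was followed within each arm against 8 h. In UT cells 2 of 38 receptors were called at 24 h (2.65% of all genes), 7 of 37 at 48 h (8.9% of all genes) and 13 of 38 at 96 h (16.1% of all genes), the last with 9 higher and 4 lower (8.9% and 7.18% of all genes). In vit C-treated cells 7 of 45 were called at 24 h (5.61% of all genes), 13 of 45 at 48 h (13.1% of all genes) and 25 of 41 at 96 h (28.9% of all genes), the last with 15 higher and 10 lower (10.9% and 18% of all genes). Without UT 96 h replicate 3 the count in UT cells at 96 h was 16, with SIGLEC11 and CLEC11A lost and SIGLEC10 (2.70), LILRA3 (1.17), LILRB3 (1.29), LILRB4 (-1.03, by a probe well above background) and the dim CLEC4C gained. Without UT 8 h replicate 2 the count in UT cells at 24 h was 0, and without vitC 24 h replicate 2 that in vit C-treated cells at 24 h was 4. With slide as a term the calls of LILRA2, SIGLEC11, CLEC7A and CLEC11A in UT cells at 96 h and of SIGLEC11 and CLEC4M in vit C-treated cells at 48 h were lost. With normexp the counts were 1 at 24 h and 7 at 96 h in UT cells, and 1, 8 and 14 at 24, 48 and 96 h in vit C-treated cells. Of the 25, 19 were called by a probe well above background throughout 1 of the groups compared. The 3 comparisons of an arm share its arrays of 8 h, but the arms share no array. The marker sums given above also moved within the arms. From 8 to 48 h the dendritic cell and fibroblast sums were higher and the platelet sum was lower without overlap in both arms. Markers within a list did not all move with its sum. CCR7 of dendritic cells rose by 3.55 in UT and 5.15 in vit C-treated cells, while FLT3 had log2 fold changes of -2.11 and -2.19. PPBP of platelets was called higher at 48 h in both arms, while GP9 had -1.40 and -1.19. The NK cell sum in UT cells went from between 0.122 and 0.148 at 8 h to between 0.229 and 0.417 at 96 h, and in vit C-treated cells from between 0.127 and 0.167 to between 0.254 and 0.503. Of single markers, DCN of fibroblasts rose by 5.30 and 7.46 on the log2 scale from 8 to 96 h in UT and vit C-treated cells, with 1 array of 8 h well above background in each arm. Of the fibroblast markers, 1 was called higher and 0 lower of 3 tested in UT cells. In vit C-treated cells 2 were called higher and 2 lower of 4 tested. PPBP of platelets was called higher at 96 h in both arms (limma q = 1.42e-06 and 2.32e-08). No array of 8 h was well above background for PPBP. Other platelet markers were split. With vit C, PF4 was a further call upwards, whereas GP9 (log2 fold change -1.01) and GP1BA (-1.19) were calls downwards. In UT cells GP1BA was a call downwards too, by a probe other than its brightest. The part of these cell types in the counts over time was not tested. At 96 h, 11 receptors were called in both arms in the same direction, which is 84.6% of the 13 in UT cells and 44% of the 25 in vit C-treated cells, against 64.9% and 35.3% over all genes. At 24 h the shares were 100% of the 2 in UT cells and 28.6% of the 7 in vit C-treated cells, against 65.4% and 30.8%. At 48 h they were 85.7% and 46.2%, against 70.5% and 46.8%.

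**Figure D4:**
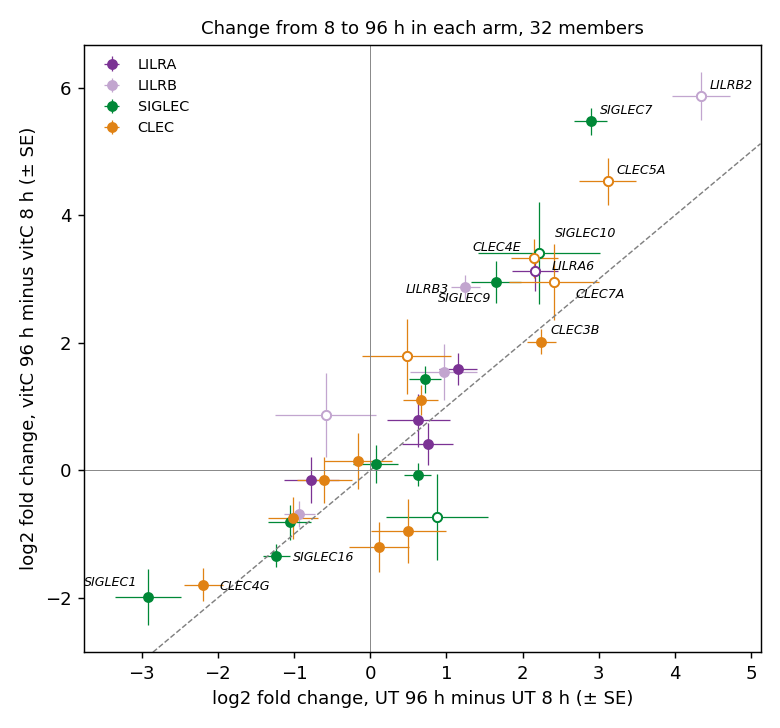
Change from 8 to 96 h in UT cells (x axis) and in vit C-treated cells (y axis), as log2 fold change of the brightest probe with SE bars, for the 32 receptors well above background throughout a group, coloured by family; the dashed line marks equal change. Open points mark genes with no array well above background in at least 1 of the groups compared, whose positions are no fold. LILRB2 lies highest as an open point, SIGLEC7 lies furthest above the line, and SIGLEC1 and CLEC4G lie lowest.

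Of the inhibitory receptors, LILRB2 rose from 8 to 96 h by a log2 fold change of 4.34 in UT cells (SE 0.38, limma q = 1.56e-06). In vit C-treated cells, where no array of 8 h was well above background, it was at least 54-fold higher (limma q = 6.69e-08). SIGLEC7 rose by 1.43 at 48 h (limma q = 0.00109) and 2.89 at 96 h (limma q = 3.58e-07) in UT cells, with 1 of the 2 arrays of 8 h well above background. In vit C-treated cells it rose by 1.78 at 24 h, 3.70 at 48 h and 5.47 at 96 h (limma q = 7.7e-10), again with 1 array of 8 h well above background. Its other probe was not called at 48 h in UT cells (0.60) or at 24 h in vit C-treated cells (1.20). At 24 h, when UT cells had -0.17 against their own 8 h, each of these comparisons lies on a single slide. SIGLEC9 rose by 1.66 in UT cells (limma q = 0.00207) and by 2.96 in vit C-treated cells at 96 h (limma q = 1.16e-05). Its rise of 1.32 at 24 h in vit C-treated cells was lost in each of the 5 fits with an array left out, the lowest value being 1.07 without vitC 24 h replicate 1. LILRB3 rose by 2.03 at 48 h and 2.87 at 96 h in vit C-treated cells (limma q = 8.69e-08), the former without a q when vitC 8 h replicate 2 (2.03) or vitC 48 h replicate 1 (2.25) was left out, since its probes then opposed each other. The other LILRB3 probe, well above background on all 19 arrays, changed by 0.05 and 0.38 in these comparisons and was not called. LILRB1, the broadest MHC class I receptor of the family, had -4.07, -4.21 and -3.46 at 8 h and -2.30 and -2.43 at 96 h in vit C-treated cells, a rise of 1.55 (limma q = 0.0156) that was lost without vitC 96 h replicate 1 (1.48) or 2 (1.61). SIGLEC10, a receptor for CD24, went from -6.90, -5.82 and -5.93 with no array well above background to -2.85 and -2.76 and was at least 4.39-fold higher (limma q = 0.00576). CLEC4A, the ITIM-bearing lectin DCIR, went from -3.18, -3.17 and -3.21 to -2.07 and -2.10 in vit C-treated cells, a rise of 1.1 in log2 (limma q = 0.00262). With normexp the calls of CLEC4A (0.30), LILRB1 (0.35) and SIGLEC10 (0.58) at 96 h in vit C-treated cells were lost, as were those of SIGLEC7 at 48 h (0.71) and SIGLEC9 at 96 h (0.82) in UT cells and of SIGLEC7 (0.61) and SIGLEC9 (0.62) at 24 h in vit C-treated cells. The rises to 96 h in UT and vit C-treated cells that stayed called were then 2.39 and 3.48 for LILRB2 and 1.18 and 3.53 for SIGLEC7, and SIGLEC9 rose by 1.68 in vit C-treated cells.

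Several activating receptors rose as well. LILRA2, which senses cleaved antibodies, had 0.22 and 0.14 at 8 h and 1.16, 1.28 and 1.53 at 96 h in UT cells, a rise of 1.15 (limma q = 0.00389). The vit C-treated arrays had -0.11, 0.01 and 0.02 and 1.66 and 1.45, a rise of 1.59 (limma q = 0.00027). The groups did not overlap in either arm. Without UT 8 h replicate 2 or UT 96 h replicate 2 the LILRA2 probes opposed each other in UT cells and no q was computed (1.11 and 1.17). LILRA6 was not well above background on any array of 8 h, and its level in vit C-treated cells of 96 h was at least 1.92-fold that of 8 h (limma q = 3.97e-06), with -6.98, -7.07 and -7.30 at 8 h and -4.54 and -3.45 at 96 h. In UT cells 1 of the 3 arrays of 96 h was well above background, so no bound is given. CLEC5A, not well above background at 8 h in either arm, had bounds of at least 2-fold higher in UT cells of 48 h (limma q = 0.000166) and 1.95-fold in those of 96 h (limma q = 3.1e-05). In vit C-treated cells the bounds were 4.76-fold (limma q = 5.04e-06) and 7.36-fold (limma q = 7.42e-07). With normexp the calls of LILRA6 in vit C-treated cells (0.08) and of CLEC5A in UT cells (0.87 and 0.57 at 48 and 96 h) were lost, and those of CLEC5A in vit C-treated cells were kept at log2 differences of 1.03 and 1.09, which lie under the bounds just given.

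CLEC4E rose in UT cells by 1.74 at 24 h, 2.40 at 48 h and 2.15 at 96 h (limma q = 0.000149), with 1 of the 2 arrays of 8 h well above background. The call at 24 h was lost without UT 8 h replicate 2 (1.21). In vit C-treated cells, with no array of 8 h well above background, it was at least 5.91-fold higher at 24 h, 17.4-fold at 48 h and 9.28-fold at 96 h (limma q = 2.2e-06). These bounds hold for the normalization used here. With normexp the log2 differences were 0.90, 2.10 and 1.29 in vit C-treated cells and 0.90, 1.23 and 1.00 in UT cells, and the calls at 24 h in both arms and at 96 h in UT cells were lost. CLEC4E was thus highest at 48 h in either arm, the UT arrays of 48 and 96 h overlapping. CLEC4D was at least 1.29-fold higher at 96 h in vit C-treated cells (limma q = 0.0285), although its arrays of 8 and 96 h overlapped. The call was lost without vitC 8 h replicate 1 or 3 or without either array of 96 h, with log2 differences from 1.26 to 2.00, and under normexp background correction the difference was -0.31. CLEC7A, or Dectin-1, the receptor for fungal beta-glucan, had -6.35 and -6.29 at 8 h and -3.98, -3.11 and -4.63 at 96 h in UT cells, and -7.07, -6.88 and -7.06 and -3.89 and -4.20 in vit C-treated cells. All arrays of 96 h and none of 8 h were well above background. It was at least 2.49-fold higher in UT cells (limma q = 0.00924, lost without either UT array of 8 h, at 2.38 and 2.45 as log2 differences) and at least 1.86-fold higher in vit C-treated cells (limma q = 0.00196). Under normexp background correction the log2 difference was 0.54 in UT cells and -0.12 in vit C-treated cells, neither called.

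**Figure D5:**
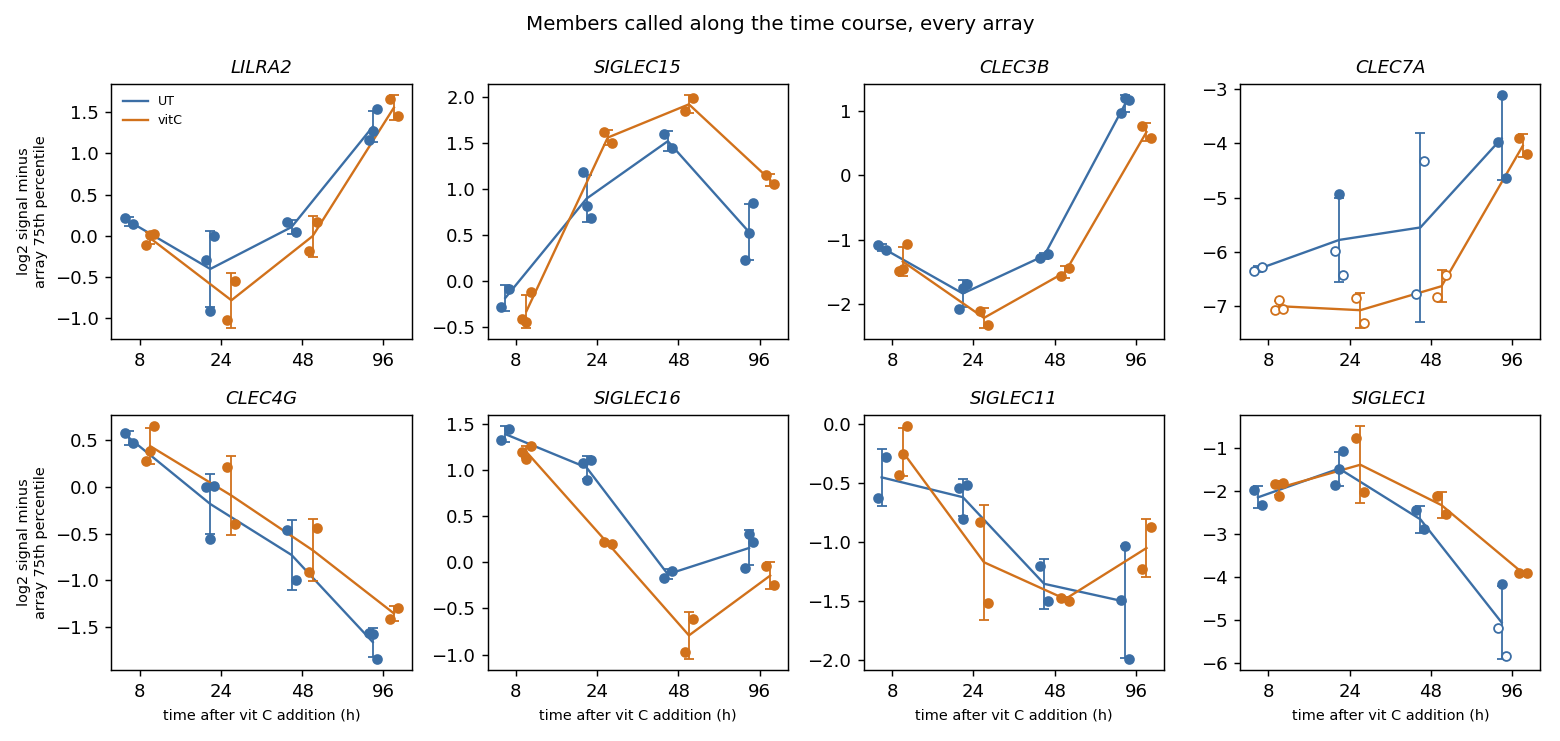
Normalized log2 signal (log2 signal minus the array's 75th percentile) by time for 8 receptors called against 8 h, drawn as points per array (open where not well above background), group means joined by lines and SD bars, UT in blue and vit C-treated in orange. LILRA2, CLEC3B and CLEC7A are highest at 96 h, SIGLEC15 at 48 h, and CLEC4G and SIGLEC1 lowest at 96 h in both arms.

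SIGLEC15, which pairs with TYROBP and is best known from osteoclasts, rose early and had -0.29 and -0.09 at 8 h, 1.19, 0.81 and 0.69 at 24 h, 1.60 and 1.44 at 48 h, and 0.23, 0.52 and 0.85 at 96 h in UT cells. With vit C it had -0.42, -0.45 and -0.12 at 8 h, 1.62 and 1.50 at 24 h, 1.85 and 1.99 at 48 h, and 1.15 and 1.05 at 96 h. It was highest at 48 h in both arms and lower again at 96 h. The log2 fold change against 8 h in UT cells was 1.08 at 24 h (limma q = 0.0125) and 1.71 at 48 h (limma q = 0.000253). The call at 24 h was lost without UT 8 h replicate 1 (0.98), UT 8 h replicate 2 (1.18) or UT 24 h replicate 1 (0.94) and with normexp (0.98). The values for vit C-treated cells were 1.89, 2.25 and 1.43 at 24, 48 and 96 h (last limma q = 0.000182). Its other probe was called in each of these comparisons too. CLEC3B, or tetranectin, a secreted plasminogen-binding lectin, had -1.08 and -1.17 at 8 h and 0.97, 1.21 and 1.18 at 96 h in UT cells, a rise of 2.25 (limma q = 1.26e-06). Vit C-treated cells had -1.49, -1.46 and -1.07 and 0.78 and 0.58, a rise of 2.02 (limma q = 2.57e-06). Its means at 24 and 48 h were below those at 8 h in both arms and not called.

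Among the receptors that fell, CLEC4G, or LSECtin, known from liver sinusoidal endothelium, had 0.58 and 0.47 at 8 h, 0.00, -0.56 and 0.01 at 24 h, -0.46 and -0.99 at 48 h, and -1.57, -1.57 and -1.84 at 96 h in UT cells. The vit C-treated arrays had 0.28, 0.39 and 0.65 at 8 h, 0.21 and -0.39 at 24 h, -0.91 and -0.44 at 48 h, and -1.41 and -1.30 at 96 h. Its group mean was lower at each later time in both arms, with log2 fold changes at 96 h of -2.19 in UT cells (limma q = 2.45e-05) and -1.79 in vit C-treated cells (limma q = 0.000122). Its call at 48 h in UT cells (-1.25) was lost without UT 8 h replicate 1 (-1.20), UT 8 h replicate 2 (-1.31) or UT 48 h replicate 2 (-0.99), and that in vit C-treated cells (-1.11) without vitC 48 h replicate 1 (-0.88) or with normexp (-0.99). SIGLEC1, or sialoadhesin, a marker of tissue macrophages that carries no signalling motif, had -1.97 and -2.34 at 8 h and -5.20, -4.16 and -5.84 at 96 h in UT cells, where 1 of 3 arrays was well above background. It changed by -2.91 in UT cells (limma q = 0.00021) and by -1.98 in vit C-treated cells (limma q = 0.00359), from -1.85, -2.12 and -1.83 to -3.91 and -3.92. The groups of 8 and 96 h did not overlap in either arm. The other SIGLEC1 probe changed by -1.38 in UT cells and was not called. With normexp the change of SIGLEC1 in UT cells was -0.97 and not called.

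SIGLEC11 and SIGLEC16, an inhibitory and an activating receptor with near-identical ligand-binding ends, were lower late by their brightest probes. SIGLEC16 had 1.33 and 1.45 at 8 h, 1.08, 0.89 and 1.11 at 24 h, -0.17 and -0.09 at 48 h, and -0.06, 0.31 and 0.21 at 96 h in UT cells. With vit C it had 1.20, 1.12 and 1.26 at 8 h, 0.22 and 0.19 at 24 h, -0.97 and -0.61 at 48 h, and -0.04 and -0.25 at 96 h. Its log2 fold change at 48 h was -1.52 in UT cells (limma q = 0.000146) and -1.99 in vit C-treated cells (limma q = 2.75e-06), and -1.34 at 96 h in the latter. The second SIGLEC16 probe, also well above background on all 19 arrays, changed by -0.30 and -0.44 at 48 h and by -0.38 at 96 h in vit C-treated cells and was not called. In UT cells at 96 h the probes went in opposite directions (-1.23 and 0.26), so SIGLEC16 was left out of that test. SIGLEC11 had -0.43, -0.26 and -0.02 at 8 h and -1.47 and -1.50 at 48 h in vit C-treated cells, a change of -1.25 (limma q = 0.00624). In UT cells it had -0.62 and -0.28 at 8 h and -1.49, -1.04 and -1.99 at 96 h, a change of -1.06 (limma q = 0.0143) that was lost without UT 8 h replicate 2 (-0.89) or UT 96 h replicate 3 (-0.81). Its other probe changed by -0.84 and -1.09 in these comparisons and was not called. SIGLEC5 fell in vit C-treated cells, with log2 fold changes against 8 h of -1.01 after 24 h and -1.87 after 48 h (limma q = 4.54e-06), the former lost without vitC 8 h replicate 1 (-0.98), vitC 8 h replicate 3 (-0.97) or vitC 24 h replicate 2 (-0.97). SIGLEC14 was at least 2.71-fold lower at 48 h than at 8 h in vit C-treated cells (limma q = 1.67e-05). With normexp the calls of SIGLEC11 in UT cells at 96 h (-0.73) and in vit C-treated cells at 48 h (-0.87), of SIGLEC5 at 24 h (-0.74) and of SIGLEC14 at 48 h (-0.45) were lost.

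CLEC11A, a secreted growth factor of haematopoietic and bone cells, had 4.45 and 3.96 at 8 h and 3.33, 3.77 and 2.48 at 96 h in UT cells, a change of -1.02 (limma q = 0.04). It was lost without UT 8 h replicate 1 (-0.77), UT 8 h replicate 2 (-1.26) or UT 96 h replicate 3 (-0.66) and after quantile normalization (-1.03). CLEC4M had -0.73, -0.96 and -0.68 at 8 h and -2.07 and -1.91 at 96 h in vit C-treated cells, a change of -1.20 (limma q = 0.0292). A dimmer CLEC4M probe was at least 1.7-fold lower at 48 h (limma q = 0.0103), where the brightest, well above background on all 19 arrays, changed by -0.04. Both CLEC4M calls were lost in most fits with an array left out, 4 of 5 at 96 h (-1.28 to -1.11 without vitC 8 h replicates 1 and 3 and either array of 96 h) and 3 of 5 at 48 h (-1.56 to -1.25 without vitC 8 h replicate 3 or either array of 48 h), and that at 48 h also with normexp (-0.17). Bright receptors that were not called in any comparison over all arrays stood beside these. LILRB4, an inhibitory receptor of monocytes, ran from 1.87 to 3.10 over the 19 arrays, LILRA4, known from plasmacytoid dendritic cells, from -3.02 to -1.16, and CLEC2D, the ligand of KLRB1, from 3.08 to 5.31. The highest value of CLEC2D, 5.31, and the lowest of LILRA4, -3.02, were both on UT 96 h replicate 3. The probes of CLEC2D went in opposite directions in every comparison between the arms and in all against 8 h but UT cells at 96 h. It was thus left out of those tests. Another CLEC2D probe, well above background on all 19 arrays, had 1.72, 1.99 and 1.98 at 8 h and 0.44 and 0.51 at 96 h in vit C-treated cells.

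The partners of these receptors were followed through lists of known genes. Of 12 MHC class I and other ligands of LILR, all were well above background throughout a group, and between the arms 0 of 7, 6 and 4 tested were called at 8, 24 and 48 h and 1 of 8 at 96 h, against 0.549%, 1.65%, 3.64% and 12.8% of all genes. The last, ANGPTL2, a ligand of LILRB2, was lower by a log2 difference of -1.55 (limma q = 0.0118), and the share of the list called was near that of all genes. Against 8 h, 7 of 11 tested were called higher at 96 h in UT cells (8.9% of all genes) and 6 of 10 in vit C-treated cells (10.9% of all genes). In both arms 0 were called lower by limma (7.18% and 18% of all genes). B2M rose by 1.19 and 1.03 and HLA-F by 1.37 and 1.48 on the log2 scale in UT and vit C-treated cells. The median log2 fold change over the 12 was 0.87 and 0.70. Over all genes well above background throughout a compared group it was -0.07 and -0.01. HLA genes are alike in sequence, and their probes may share RNA.

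Of 24 genes of ITAM and ITIM signalling, between the arms 0 of 20 were called at 8 h, 0 of 22 at 24 h, 1 of 19 at 48 h (LCP2, or SLP-76, lower by a log2 difference of -1.04, limma q = 0.0372) and 1 of 20 at 96 h (BCL10, higher by 1.32 on the log2 scale, limma q = 0.0083). Of all genes 0.549%, 1.65%, 3.64% and 12.8% were called at these times. Against 8 h, 2 were called higher and 5 lower of 21 at 96 h in UT cells, and 3 higher and 4 lower of 21 in vit C-treated cells. Of all genes, 8.9% were called higher and 7.18% lower in UT cells, and 10.9% and 18% in vit C-treated cells. The log2 fold changes of the kinase FGR were -1.73 in UT and -1.49 in vit C-treated cells, and those of the phosphatase PTPN6, or SHP-1, -1.25 and -1.52. Of 19 genes of sialic acid synthesis and transfer, 0 were called at 8, 24 and 48 h between the arms, and at 96 h 1 of 17, ST8SIA4, by a probe other than its brightest, against 12.8% of all genes.

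Among 30 receptors of the same superfamilies that go by other names, TREM2, a TYROBP-coupled lipid receptor, was lower in vit C-treated cells at 48 h by a log2 difference of -1.18 (limma q = 0.0116), and CD300A was called lower at 24 and 48 h by one of its dimmer probes. Of the list, 1 of 26 tested was called higher and 4 lower at 96 h (2.72% and 10.1% of all genes). The scavenger receptor COLEC12, of the collectin family, was higher by 4.01 on the log2 scale (limma q = 6.7e-05), and OLR1, or LOX-1, lower by a log2 difference of -1.15 (limma q = 0.0334). Against 8 h, 3 were called higher and 7 lower of 28 in UT cells at 96 h (8.9% and 7.18% of all genes), and 5 higher and 9 lower of 27 in vit C-treated cells (10.9% and 18% of all genes). TREM1, which amplifies inflammatory signals, rose by 2.73 in UT and 2.64 in vit C-treated cells (2 of 3 vit C-treated arrays of 8 h well above background), while CD209, or DC-SIGN, had log2 fold changes of -2.46 and -1.93 and CD300C of -2.73 and -3.15.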

How the data were processed

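RNA from PMA-differentiated THP-1 cells was hybridized to 19 one-colour Agilent arrays. Per the file headers, the authors extracted the spots with Agilent Feature Extraction 10.5.1.1, and the deposited processed signal is an intensity on a linear scale after background subtraction. The deposited series matrix holds log2 values that the authors shifted by the 75th percentile of each array, and it served as an alternative. Control spots were left out, while spots that the software marked as outliers were kept. The log2 signals of the spots of a probe were averaged, and each array's own 75th percentile was subtracted. This left 50238 probes of 31033 gene names. "Well above background" is the software's own mark. The precision is limited by the 2 or 3 arrays per group, which the study's methods describe as biological replicates, from flasks of the same cell line seeded in triplicate, and p-values measure the spread between them. Same-numbered UT and vit C-treated arrays did not deviate together, so no block was used.

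Groups were compared with limma 3.58.1 (R 4.3.3), 8 group means over 19 arrays, with empirical Bayes and Benjamini-Hochberg adjustment over all probes. Genes whose probes changed in opposite directions were left out of a comparison, after the study's methods. Calls needed a log2 change of 1 or more in size and a q no higher than 0.05. Where no array of a group was well above background, a bound was computed from the lowest signal well above background on each array. Scripts were tested on simulated data. The members, the gene lists and the tests were chosen with earlier results of these data known. Receptors were named with values where the called probe was well above background throughout a compared group, where a receptor was among the 2 with the largest differences well above background on all arrays compared, or where it was among the brightest of its family. Alternatives were quantile normalization, another percentile, normexp background correction with an offset of 50, dim probes left out, genes with opposing probes kept, slide and replicate number as blocks, the deposited log2 values, an intensity trend, the methods' t-test and each array left out. Contrasts of the vit C effect with that at 8 h, values per slide and a crossed replicate block were added after seeing the data. Promoter sequences were taken from RefSeq on GRCh38.p14; the build of the probes was not used. Some genes of the lists are not reported here by name.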

Additional observations from a re-analysis of the deposited data

Results flagged for a closer look

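The effect of vit C differed between 8, 24, 48 and 96 h for 3 receptors in the limma F test, with adjusted p of 0.00372 for SIGLEC7, 0.0392 for LILRB3 and 0.0491 for SIGLEC5. SIGLEC7 and LILRB3 had larger differences at 96 h than at 8 h, and the dimmer SIGLEC5 probe had its lowest difference at 48 h.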

How the results depend on the processing

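Of 1257 refits of single receptors under an alternative, 1088 kept direction and side of the threshold, 162 lost the call, 4 gained one and 3 changed sign. The 3 were under normexp background correction and in dim genes, with log2 differences of -0.31 for CLEC4D and -0.12 for CLEC7A from 8 to 96 h in vit C-treated cells and -0.19 for CLEC4D between the arms at 96 h. Normexp also lowered the counts of called receptors between the arms to 0, 1 and 4 at 24, 48 and 96 h and to 1 for the average, and against 8 h to 1 at 24 h and 7 at 96 h in UT cells and to 1, 8 and 14 at 24, 48 and 96 h in vit C-treated cells. At 96 h between the arms, 5 were called after quantile normalization and 5 with dim probes left out, none of them lower. With slide as a fixed term the counts were 1 at 24 h, not among the 2 called without the term, and 2 at 48 h. The arms at 96 h, the average, the F test and 96 against 8 h in vit C-treated cells could not be fitted with that term. With slide as a random term the F test found 1. The deposited log2 values changed no call. The methods' t-test called 0 after Benjamini-Hochberg adjustment at 24, 48 and 96 h, and 3, 6 and 10 at the unadjusted threshold. With an array left out the counts between the arms ran from 0 to 1 at 8 h, 1 to 2 at 24 h, 2 to 2 at 48 h, 3 to 13 at 96 h and 3 to 5 for the average, from 0 to 3, 5 to 6 and 11 to 16 against 8 h in UT cells, from 4 to 7, 11 to 13 and 18 to 22 in vit C-treated cells, and from 1 to 5 in the F test. Where this left 1 array in a group, its spread was taken from the rest. Signal over background is the limit for 6 receptors marked well above background on some arrays only and for 11 on none.

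Replicate numbers did not pair the arms, with correlations of deviations from -0.336 to 0.129. With the replicate number as a replicate block, 5 receptors were called between the arms at 96 h and 1 in the F test, and the other counts stayed within 1.5 times. With the numbers of vit C-treated arrays at 48 h crossed, 4 were called there in place of 5.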
